A study of Homo sapiens with 9 samples.

Results

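The genes of the human mitochondrial genome were the 37 entries that the deposited count tables place on chromosome MT, out of 58735 genes listed. They comprised 13 mRNA genes, 2 rRNA genes and 22 tRNA genes. Their RNA was measured by RNA sequencing after poly(A) selection. The cells were HEK293T, an SV40 large T antigen line derived from human embryonic kidney. In these cells PRPS1 carries an HA epitope with a dTAG degron, and PRPSAP1 a V5 epitope with a BromoTag degron, in treated and control cells alike. One group received dTAG47, which recruits the ubiquitin ligase receptor CRBN to deplete PRPS1, and another received AGB1, which recruits VHL to deplete PRPSAP1. Each compound was given at 500 nM for 24 h, the control group received DMSO, and each group held 3 libraries. The design asked how the transcriptome responds to loss of either protein. Whether the 3 libraries were separate cultures, and whether the line is 1 clone, is not stated in the labels. The p-values below therefore set differences between groups against the spread of these libraries, which may in part be technical.

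Mitochondrial DNA is transcribed from both strands into long precursors by a dedicated RNA polymerase. Most mRNAs and both rRNAs are flanked by tRNAs, whose excision by RNase P and RNase Z releases them. A mitochondrial poly(A) polymerase then adds tails, which complete the stop codon of several mRNAs. The mRNAs encode core subunits of respiratory complexes I, III and IV and of the ATP synthase, complex V, while MT-RNR1 and MT-RNR2 are the 12S and 16S rRNAs of the small and large subunits of the mitochondrial ribosome. PRPS1 makes phosphoribosyl pyrophosphate, from which cells build purine and pyrimidine nucleotides, and PRPSAP1 is a partner protein of the PRPS enzymes.

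Of the 37 genes, 28 lie on the plus strand of the reference and 9 on the minus strand, namely MT-ND6 and 8 tRNAs. Since the strand setting of the counting is not given in the sources used here, reads of MT-ND6 and of antisense transcripts at its position cannot be told apart. The layout and the sequences that decide what a count of these genes can mean are shown first, from GENCODE 29 transcripts on GRCh38.

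MT-ATP8 (MT:8366-8572, plus strand), a subunit of the ATP synthase, shares 46 of its 207 bases, 22.2%, with MT-ATP6, and both proteins are read from 1 mRNA. The shared bases, where a read belongs to both genes, are in capitals.
MT-ATP8: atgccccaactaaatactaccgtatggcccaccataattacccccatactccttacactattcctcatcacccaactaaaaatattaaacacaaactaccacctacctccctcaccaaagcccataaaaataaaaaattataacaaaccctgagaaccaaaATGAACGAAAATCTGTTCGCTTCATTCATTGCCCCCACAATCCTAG
MT-ND4L (MT:10470-10766) and MT-ND4, both of complex I, likewise share 7 bases and 1 mRNA. The last 40 bases of MT-ND4L are shown with the shared ones in capitals.
MT-ND4L end: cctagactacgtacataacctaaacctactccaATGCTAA

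As annotated, 6 of the 13 mRNA genes end without a complete stop codon. MT-ATP6 is not among these 6, but its last annotated base is shared with MT-CO3. In 5 of the 6 the last codon holds 1 base, and in MT-ND1 it holds 2 bases. The final 30 bases of each are shown, with the incomplete codon in capitals, because these ends become stop codons through the poly(A) tail on which the libraries were selected.
MT-ND1 end: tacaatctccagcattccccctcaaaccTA
MT-ND2 end: ctatctccccttttatactaataatcttaT
MT-CO3 end: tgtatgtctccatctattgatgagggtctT
MT-ND3 end: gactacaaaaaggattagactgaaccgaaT
MT-ND4 end: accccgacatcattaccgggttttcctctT
MT-CYB end: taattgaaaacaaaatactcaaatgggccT
The ends lie at MT:4233-4262, MT:5482-5511, MT:9961-9990, MT:10375-10404, MT:12108-12137 and MT:15858-15887, all on the plus strand.

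The rRNAs, which carry short A tails, are present in these libraries as far as poly-T beads caught them, so their counts describe that part of the pool. Runs of A inside a transcript are a further feature of poly-T capture. The longest one in each rRNA is shown in capitals, at MT:978-1013 for MT-RNR1 and at MT:2442-2478 for MT-RNR2.
MT-RNR1 longest A run: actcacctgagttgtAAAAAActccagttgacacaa
MT-RNR2 longest A run: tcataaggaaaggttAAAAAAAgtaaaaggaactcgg
Runs of this length were not particular to the rRNAs: MT-ND5 held 8 A in a row, and MT-ND2, MT-CO1 and MT-ND4 held 7 each. Whether internal runs were captured was not tested.

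The libraries held 27964128 to 44803380 counts, and 18319 genes passed the filter on low counts and were tested. PRPS1 and PRPSAP1 mRNA did not pass the test with either compound. On the log2 scale PRPS1 was at 0.09 with dTAG47 (SE 0.06, edgeR adjusted p = 0.808), and PRPSAP1 was at -0.02 with AGB1 (SE 0.12, edgeR adjusted p = 0.987). Both compounds act on protein, so mRNA is no check of depletion. Of 7 markers of other cell types, PTPRC of leukocytes and HBB of red cells were each at 0 in 8 of 9 libraries. The summed level of the 7 ranged from 28.1 to 35.4 CPM (counts scaled to a common library size) in dTAG47 libraries, from 25.6 to 29.3 CPM in AGB1 libraries and from 30.5 to 33.5 CPM in DMSO libraries, most of it from COL1A1. One library stood apart in the mitochondrial genes. Over these genes dTAG47 libraries 1 and 3 differed by a chi-square of 57.1 per degree of freedom, whereas dTAG47 library 2 differed from them by 319 and 352. This statistic grows with counts, and dTAG47 library 2 was the deepest at 44803380. Over all genes that library did not stand apart. Its values there were 14.6 and 7.93, against 9.27 for dTAG47 libraries 1 and 3 and 16.1 for DMSO libraries 1 and 3. Over the mitochondrial genes, pairs within the AGB1 and DMSO groups gave 47.4 to 111, so that no pair of the same group was alike within sampling noise.

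Mitochondrial genes took about 2% of all counts in every library. Their share was 2.23%, 1.91% and 2.33% in the dTAG47 libraries, 2.27%, 2.12% and 1.97% in the AGB1 libraries and 2.30%, 2.33% and 2.13% in the DMSO libraries. The 3 groups overlapped, and the lowest value was that of the dTAG47 library that stood apart. The mean was 2.16% ± 0.216 with dTAG47, 2.12% ± 0.152 with AGB1 and 2.25% ± 0.110 with DMSO (SD, n = 3 each). The two-sided exact permutation test gave p = 0.6 for dTAG47 and 0.2 for AGB1 against DMSO, where 3 libraries against 3 cannot go below 0.1. Since the RNA came from bulk cultures, a change in all cells and one in some of them cannot be told apart here or below. Shares of all counts and CPM are also relative, so a change in nuclear RNA would move them too.

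The 13 mRNAs held most of these counts. They took 1.996%, 1.66% and 2.09% of all counts in dTAG47 libraries, 2.04%, 1.88% and 1.76% in AGB1 libraries and 2.02%, 2.05% and 1.89% in DMSO libraries. The groups overlapped (two-sided exact permutation p = 0.8 for dTAG47 and 0.4 for AGB1 against DMSO). The 2 rRNAs took 0.232%, 0.248% and 0.232% in dTAG47 libraries, 0.230%, 0.242% and 0.210% in AGB1 libraries and 0.274%, 0.282% and 0.236% in DMSO libraries. Here DMSO libraries 1 and 2 lay above all 6 treated libraries, and DMSO library 3 lay among them (two-sided exact permutation p = 0.2 for each compound). Over the 12 comparisons of class shares the smallest Benjamini-Hochberg adjusted value was 0.8. Without dTAG47 library 2 the mean mRNA share with dTAG47 lay 0.0567 percentage points above that of DMSO, against a difference of -0.0699 points with all libraries.

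**Figure D1:**
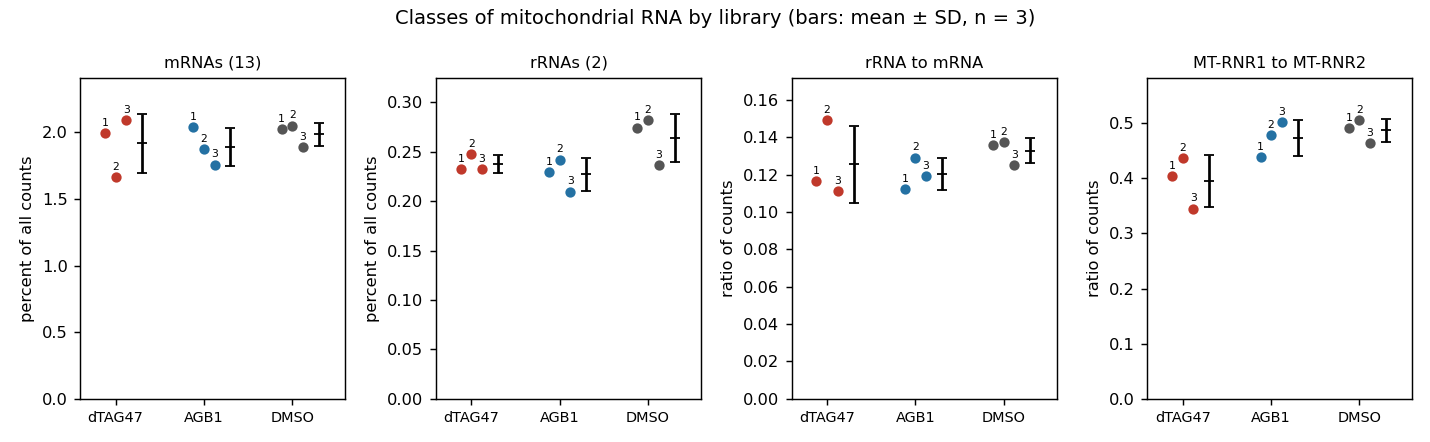
Share of all counts on the 13 mitochondrial mRNAs and on the 2 rRNAs, in percent, and the ratios of rRNA to mRNA counts and of MT-RNR1 to MT-RNR2 counts, for each of 9 libraries; points are libraries with their replicate number, bars are mean ± SD (n = 3). The MT-RNR1 to MT-RNR2 ratio was 0.345 to 0.436 in the dTAG47 libraries, below the 0.438 to 0.502 of AGB1 and the 0.463 to 0.505 of DMSO; the other 3 measures overlapped between each compound and DMSO.

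The 12S rRNA MT-RNR1 (MT:648-1601, 954 bases) was the gene of the mitochondrial genome that passed the test, and it was lower with dTAG47. Its normalised level was 669, 754 and 592 CPM in dTAG47 libraries, 705, 783 and 704 CPM in AGB1 libraries and 900.1, 941 and 749 CPM in DMSO libraries. All dTAG47 and AGB1 libraries lay below DMSO libraries 1 and 2, while DMSO library 3 lay within the range of both. MT-RNR1 fell by 0.36 on the log2 scale with dTAG47 (SE 0.07, 95% interval -0.50 to -0.22, edgeR adjusted p = 0.0310). It was the 1 of 16 tested genes called, where 0.06% of all genes tested were called in that comparison in either direction and 0.0273% were called as lower. With AGB1 the log2 fold change was -0.24 (SE 0.07, edgeR adjusted p = 0.257), with an unadjusted edgeR p of 0.00172. The direct difference between the compounds, dTAG47 minus AGB1, was -0.12 (SE 0.07, 95% interval -0.26 to 0.02, edgeR adjusted p = 0.999), so the data do not show that they differ in their level of MT-RNR1. It was -0.213 without dTAG47 library 2 and -0.0409 without dTAG47 library 3.

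The MT-RNR1 call with dTAG47 rested on few libraries. Without DMSO library 1, DMSO library 2, dTAG47 library 1 or dTAG47 library 3, the edgeR adjusted p was 0.0769, 0.382, 0.187 and 0.365, with log2 fold changes of -0.33, -0.30, -0.36 and -0.28. DESeq2 gave the same fold change and an adjusted p of 0.226, and edgeR on the 2 groups alone gave 0.0917. Dependence on the GC content of genes also differed between libraries. Spearman's rho of a library's deviation on GC was 0.623, -0.329 and 0.0287 in dTAG47 libraries 1, 2 and 3. It was -0.378, -0.281 and 0.271 in DMSO libraries 1, 2 and 3, and -0.0269 to 0.0498 in AGB1 libraries. After removal of these trends the log2 fold change was -0.35 (edgeR adjusted p = 0.00718). Without DMSO library 3, MT-RNR1 and MT-RNR2 passed the test with AGB1 (log2 fold changes -0.33 and -0.25, edgeR adjusted p = 0.0107 and 0.0111).

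The 16S rRNA MT-RNR2 (MT:1671-3229, 1559 bases), released from the same precursor, showed another order of groups. It had 1657, 1727 and 1718 CPM in dTAG47 libraries, 1609, 1637 and 1401 CPM in AGB1 libraries and 1831, 1862 and 1617 CPM in DMSO libraries. The AGB1 libraries were below all 3 dTAG47 libraries, and DMSO library 3 was again the lowest of its group. The log2 fold change against DMSO was -0.06 (SE 0.05, edgeR adjusted p = 0.862) with dTAG47 and -0.19 (SE 0.05, edgeR adjusted p = 0.198) with AGB1. Between the compounds, dTAG47 minus AGB1, it was 0.13 (SE 0.05, edgeR adjusted p = 0.999, unadjusted p = 0.0137), 1 of 16 genes whose libraries did not overlap, where 10.5% of all genes tested did not overlap. Without AGB1 library 3 it was 0.0665.

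The balance between the rRNAs is free of library scaling. The ratio of MT-RNR1 to MT-RNR2 counts was 0.404, 0.436 and 0.345 in dTAG47 libraries, 0.438, 0.478 and 0.502 in AGB1 libraries and 0.492, 0.505 and 0.463 in DMSO libraries. Each dTAG47 library lay below all 6 others, though dTAG47 library 2 lay close to the lowest AGB1 library. The mean log2 difference was -0.31 for dTAG47 minus DMSO and -0.26 for dTAG47 minus AGB1, each at the smallest p that the two-sided exact permutation test allows here, 0.1. Without dTAG47 library 3 the difference from AGB1 was -0.169. For AGB1 minus DMSO it was -0.04 (two-sided exact permutation p = 0.6). Over the 6 comparisons of the rRNA ratios the adjusted values of these 3 were 0.3, 0.3 and 0.72. The summed rRNA counts per mRNA count were 0.116, 0.149 and 0.111 in dTAG47 libraries, 0.112, 0.129 and 0.119 in AGB1 libraries and 0.136, 0.138 and 0.125 in DMSO libraries. The dTAG47 values spanned the widest range, with the library that stood apart at the top (two-sided exact permutation p = 0.6 for dTAG47 and 0.2 for AGB1 against DMSO). The log2 difference in this ratio for dTAG47 minus DMSO was -0.09, and -0.22 without that library.

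Among the mRNAs none passed the test with either compound. Counting all 16 tested genes, 4 had a positive and 12 a negative log2 fold change with dTAG47, and the same split, 4 and 12, held with AGB1. Both comparisons share the DMSO libraries, so the split is not independent between them. The median log2 fold change over the 16 was -0.04 with dTAG47 and -0.06 with AGB1, beside a median of 0.00 over all genes tested in each. The signs with dTAG47 depended on the library that stood apart. Without it 13 of the 16 had a positive log2 fold change with dTAG47, among them 12 of the 13 mRNAs, while MT-RNR1, MT-RNR2 and MT-CO3 were negative at -0.46, -0.07 and -0.01. The adjusted p of MT-RNR1 was then 0.00199 in edgeR. With AGB1 none of 16 was called by edgeR, DESeq2 or limma-voom, where edgeR called 0.104% of all genes tested. Without adjustment 6 of the 16 were under 0.05, 2 higher and 4 lower, where 7.76% of all genes tested were, 3.55% higher and 4.21% lower. With dTAG47 2 of the 16 were, MT-RNR1 and MT-ND3, against 7.28%.

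**Figure D2:**
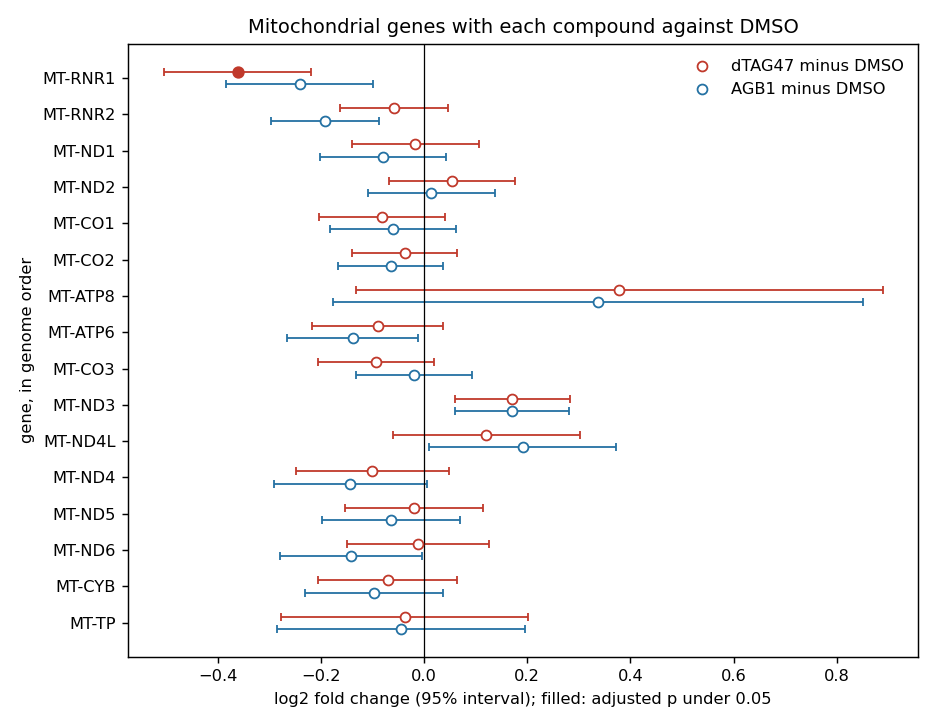
Log2 fold change with its 95% interval for the 16 tested mitochondrial genes, in genome order, for dTAG47 minus DMSO and AGB1 minus DMSO; a filled point passed an edgeR adjusted p of 0.05. MT-RNR1 with dTAG47, at -0.36, is the filled point, and the interval of MT-ATP8 is the widest.

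Of the 7 complex I subunits, MT-ND3 (MT:10059-10404, 346 bases), part of the membrane arm near the quinone site, was the mRNA with the smallest p with both compounds. It had 696, 788 and 791 CPM in dTAG47 libraries, 788, 744 and 741 CPM in AGB1 libraries and 690.0, 615 and 715 CPM in DMSO libraries. The AGB1 libraries lay above all DMSO libraries, and dTAG47 library 1 lay between the DMSO libraries. The log2 fold change was 0.17 with each compound (SE 0.05 in both; edgeR adjusted p = 0.384 with dTAG47 and 0.358 with AGB1). Without DMSO library 2, which both comparisons share, it was 0.108 with dTAG47 and 0.107 with AGB1. MT-ND3 was the 1 of 16 genes without overlap between AGB1 and DMSO, where 13.3% of all genes tested had none. Between dTAG47 and DMSO none of the 16 was without overlap, where 11.6% of all genes tested were.

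MT-ND4L, the small membrane subunit whose gene overlaps MT-ND4, was at 216, 225 and 297 CPM in dTAG47 libraries, 285, 269 and 221 CPM in AGB1 libraries and 246, 225 and 208 CPM in DMSO libraries. The groups overlapped, with 1 high dTAG47 library. Its log2 values were 0.12 (SE 0.09, edgeR adjusted p = 0.817) with dTAG47 and 0.19 (SE 0.09, edgeR adjusted p = 0.609) with AGB1. MT-ND4, a proton-pumping subunit translated from the same mRNA, lay on the other side of 0. It had 2851, 2183 and 3009 CPM in dTAG47 libraries, 2840, 2650 and 2318 CPM in AGB1 libraries and 2801, 3080 and 2743 CPM in DMSO libraries. Its lowest level was that of the dTAG47 library that stood apart, and its log2 fold changes were -0.10 (SE 0.07, edgeR adjusted p = 0.813) with dTAG47 and -0.14 (SE 0.07, edgeR adjusted p = 0.656) with AGB1.

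MT-ND1, MT-ND2 and MT-ND5, further membrane subunits of complex I, were at -0.02, 0.05 and -0.02 on the log2 scale with dTAG47 and at -0.08, 0.01 and -0.06 with AGB1. None of these passed the test. MT-ND1 averaged 951 ± 113 CPM with dTAG47, 911 ± 57.1 CPM with AGB1 and 963 ± 42.8 CPM with DMSO (SD, n = 3 each). MT-ND2 averaged 1878 ± 193 CPM with dTAG47, 1826 ± 158 CPM with AGB1 and 1808 ± 137 CPM with DMSO. MT-ND5 averaged 1106 ± 145 CPM with dTAG47, 1071 ± 98.4 CPM with AGB1 and 1121 ± 54.1 CPM with DMSO. In all 3 genes the difference between group means was within the SD of the dTAG47 libraries.

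MT-ND6 (MT:14149-14673), the mRNA gene on the minus strand, had 272, 223 and 271 CPM in dTAG47 libraries, 256, 224 and 220.2 CPM in AGB1 libraries and 258, 270 and 245 CPM in DMSO libraries. AGB1 libraries 2 and 3 and dTAG47 library 2 lay below every DMSO library. The log2 fold change was -0.01 (SE 0.07) with dTAG47 and -0.14 (SE 0.07, unadjusted p = 0.0449, adjusted p = 0.629 in edgeR) with AGB1. MT-CYB, cytochrome b and the complex III subunit of this genome, averaged 1059 ± 141 CPM with dTAG47, 1039 ± 85.9 CPM with AGB1 and 1112 ± 64.3 CPM with DMSO (SD, n = 3 each). Its log2 fold changes were -0.07 (SE 0.07) with dTAG47 and -0.10 (SE 0.07) with AGB1, neither past the threshold.

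Averaged over the 9 libraries, the 3 complex IV mRNAs had the highest levels per length by assigned reads, although MT-ATP6 exceeded MT-CO1 in 1 library. Reads assigned to the nuclear copy MTATP6P1, 19.0 to 20.7 per 100 counts of MT-ATP6, were not added to MT-ATP6 here. MT-CO1, which holds the oxygen-reducing site of cytochrome c oxidase, had 4215, 3495 and 4400 CPM in dTAG47 libraries, 4453, 4088 and 3745 CPM in AGB1 libraries and 4381, 4485 and 3953 CPM in DMSO libraries. The lowest of the 9 was the dTAG47 library that stood apart, and the groups overlapped. MT-CO1, MT-CO2, which receives electrons from cytochrome c, and MT-CO3, the remaining core subunit, had log2 fold changes of -0.08, -0.04 and -0.09 with dTAG47. With AGB1 they were -0.06, -0.06 and -0.02. The SE was 0.05 to 0.06 throughout and none passed the test.

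Of the ATP synthase mRNAs, MT-ATP6, the proton-channel subunit, had 1848, 1457 and 1864 CPM in dTAG47 libraries, 1822, 1606 and 1570 CPM in AGB1 libraries and 1898, 1804 and 1800 CPM in DMSO libraries. Of the treated libraries, 2 with dTAG47 and 1 with AGB1 lay inside the DMSO range. The log2 fold change was -0.09 (SE 0.06, edgeR adjusted p = 0.806) with dTAG47 and -0.14 (SE 0.06, edgeR adjusted p = 0.587) with AGB1. MT-ATP8, shown above, had 3.35, 4.35 and 5.93 CPM in dTAG47 libraries, 5.74, 4.76 and 2.68 CPM in AGB1 libraries and 4.02, 3.18 and 3.26 CPM in DMSO libraries. These rest on 83 to 212 counts per library, and the groups overlapped. The log2 fold change was 0.38 with dTAG47 and 0.34 with AGB1, each with an SE of 0.25, and neither passed the test.

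**Figure D3:**
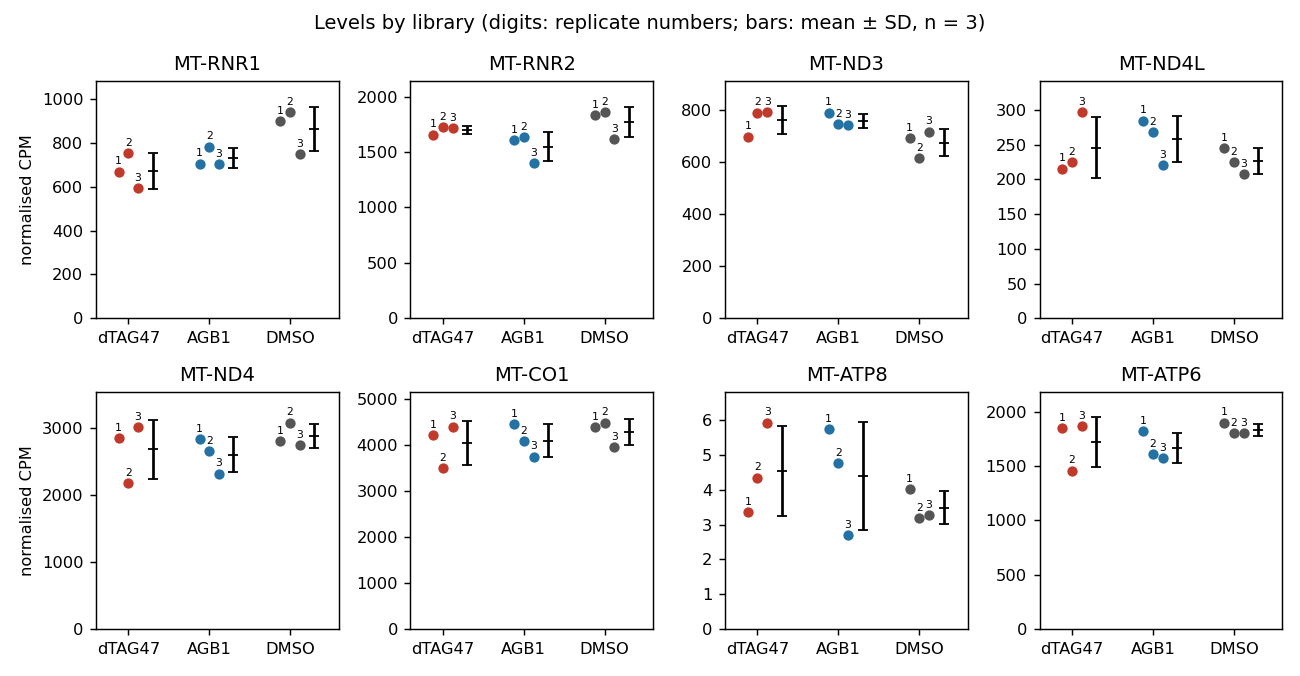
Normalised CPM of 8 mitochondrial genes in each library (points, with replicate numbers) and the mean ± SD of each group (bars, n = 3), each panel on its own axis from 0. DMSO libraries 1 and 2 are the highest for MT-RNR1, the AGB1 libraries of MT-ND3 lie above the DMSO libraries, and dTAG47 library 2 is the lowest for MT-ND4, MT-CO1 and MT-ATP6.

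Within the mitochondrial mRNA counts, which also need no library scaling, the complexes kept nearly constant shares. Complex I subunits took 40.9%, 41.1% and 41.4% in dTAG47 libraries, 40.4%, 40.3% and 40.2% in AGB1 libraries and 40.3%, 39.7% and 40.03% in DMSO libraries. Complex IV subunits took 44.3%, 44.7% and 43.9% in dTAG47 libraries, 45.3%, 45.5% and 45.5% in AGB1 libraries and 44.9%, 45.6% and 44.8% in DMSO libraries. Every dTAG47 library was above all others for complex I and below all others for complex IV. The mean for complex I was 41.1% with dTAG47, 40.3% with AGB1 and 40.01% with DMSO, and that for complex IV 44.3% with dTAG47, 45.4% with AGB1 and 45.1% with DMSO. Each of these 4 differences had a two-sided exact permutation p of 0.1, the smallest possible, and an adjusted value of 0.3 over the 12 comparisons of complexes, a grouping chosen after the values were seen. The 4 are not independent, since shares of a library add up to a whole and all use the same dTAG47 libraries. Complex III averaged 5.52% with dTAG47, 5.47% with AGB1 and 5.61% with DMSO. Complex V averaged 9.01% with dTAG47, 8.79% with AGB1 and 9.28% with DMSO, and the groups overlapped for both.

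Among single mRNAs, the shares of the 3 shortest, MT-ATP8, MT-ND4L and MT-ND3, varied most between libraries. MT-ND3 took 3.49%, 4.74% and 3.80% of mitochondrial mRNA counts in dTAG47 libraries, 3.83%, 3.97% and 4.195% in AGB1 libraries and 3.43%, 3.02% and 3.78% in DMSO libraries. Every AGB1 library was above every DMSO library, and the highest of all was the dTAG47 library that stood apart. The mean difference from DMSO was 0.598 percentage points with dTAG47, or 0.233 points without that library, and 0.587 points with AGB1. MT-ND4L took 1.08%, 1.35% and 1.43% in dTAG47 libraries, 1.38%, 1.43% and 1.251% in AGB1 libraries and 1.22%, 1.11% and 1.10% in DMSO libraries, again with AGB1 above DMSO throughout. MT-ND6 averaged 1.23% ± 0.0297 with AGB1 and 1.30% ± 0.0210 with DMSO (SD, n = 3 each), with AGB1 below DMSO in every library. These 3 of 13 shares had a two-sided exact permutation p of 0.1 and an adjusted p of 0.433 over the 13 mRNAs. For dTAG47 against DMSO 1 of 13 shares did not overlap, MT-ND1 at 4.97% ± 0.0333 with dTAG47 and 4.86% ± 0.0543 with DMSO (two-sided exact permutation p = 0.1, adjusted 0.473). Between dTAG47 and AGB1 4 of 13 did not overlap: MT-ND1 and MT-ND6 were higher and MT-CO1 and MT-CO3 lower in dTAG47 libraries (each exact permutation p = 0.1, adjusted 0.325). The 13 shares of a library add up to a whole, so they are not independent. In level rather than share, 11.6% of all genes tested did not overlap between dTAG47 and DMSO. It was 13.3% between AGB1 and DMSO and 10.5% between dTAG47 and AGB1.

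**Figure D4:**
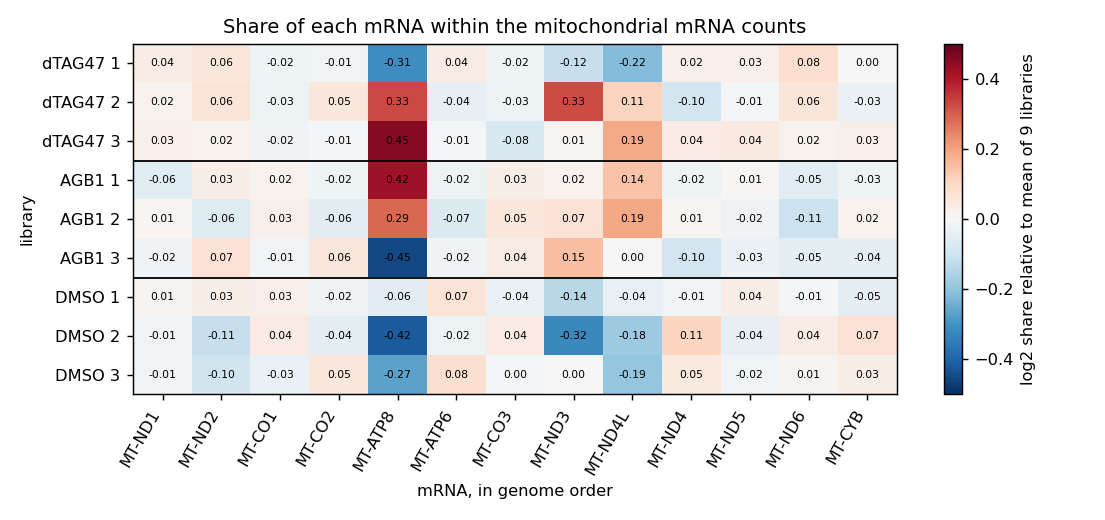
Log2 of each mRNA's share of the mitochondrial mRNA counts, relative to its mean over the 9 libraries (color and printed value), with mRNAs in genome order and libraries grouped as dTAG47, AGB1 and DMSO from the top. MT-ATP8, MT-ND3 and MT-ND4L vary most between libraries, and dTAG47 library 2 has the highest share of MT-ND3.

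Levels of different genes were compared as CPM per kilobase of gene length. They describe reads assigned to each gene, without those assigned to nuclear copies. For MT-ATP6 the copy MTATP6P1 held 19.0 to 20.7 counts per 100, so its place in the order depends on that assignment. Averaged over the 9 libraries MT-CO3 was highest at 3324 CPM per kilobase, then MT-CO2 at 2834, MT-CO1 at 2682, MT-ATP6 at 2556, MT-ND3 at 2109, MT-ND4 at 1974 and MT-ND2 at 1763 CPM per kilobase. Neighbours in this upper group had overlapping ranges, although MT-CO3 was above MT-CO2 in all 9 libraries. A gap without overlap followed, below which lay MT-RNR2 at 1073, MT-ND1 at 985, MT-CYB at 938, MT-ND4L at 820 and MT-RNR1 at 792 CPM per kilobase. MT-ND5 at 607 and MT-ND6 at 474 CPM per kilobase were the lowest of the complex I mRNAs and did not overlap each other. After poly(A) selection such levels also depend on how much of each RNA was captured. That was not measured for any gene, MT-ND6 included. Among mRNAs and rRNAs other than MT-ATP8, the highest mean was 7.02 times the lowest.

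MT-ATP8 was far below this range at 20.01 CPM per kilobase. Per length its counts were 0.00563 to 0.0105 of those of MT-ATP6, although both stand on 1 mRNA. MT-ND4L counts per length were likewise 0.340 to 0.479 of those of MT-ND4, its partner on 1 mRNA. How the authors' counting treated reads in shared bases, and reads that span a short gene and its neighbour, is not given in the sources used here, so the low levels of these genes describe assigned reads. When each pair was summed before the fit, the log2 fold change of MT-RNR1 with dTAG47 was still -0.36 (edgeR adjusted p = 0.0304).

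**Figure D5:**
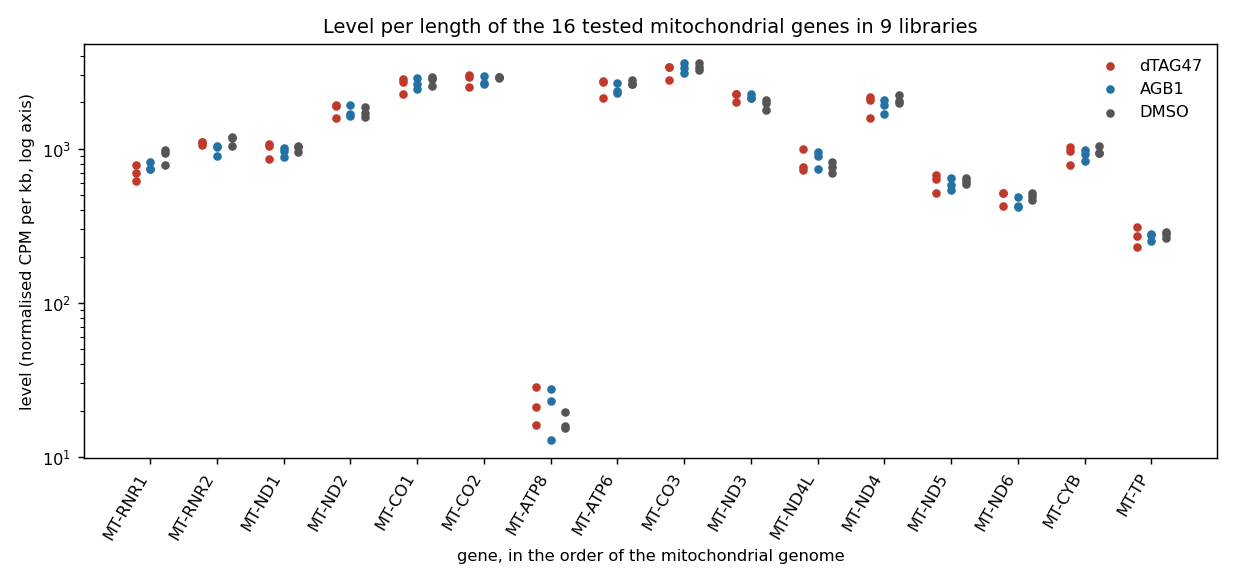
Normalised CPM per kilobase of gene length (log axis) of the 16 tested mitochondrial genes, in genome order, in the 3 libraries each of dTAG47, AGB1 and DMSO. MT-CO3 is highest at a mean of 3324, MT-ATP8 lowest at 20.01, and the groups of each gene lie close together against the differences between genes.

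The tRNAs were nearly absent from the counts. Their genes are 59 to 75 bases long, and 19 of the 22 had 0 counts in every library, where 3 counts in a library, the limit that 0 allows, correspond to 0.0670 to 0.107 CPM. MT-TP, the proline tRNA gene, held 99.9% of the 5712 tRNA counts. MT-TF, the phenylalanine tRNA gene, had 7 counts and MT-TA, for alanine, 1 count in all. The sequences of the pair with the most counts are shown as the tRNAs read.
MT-TP: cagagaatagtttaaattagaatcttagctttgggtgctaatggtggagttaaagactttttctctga
MT-TF: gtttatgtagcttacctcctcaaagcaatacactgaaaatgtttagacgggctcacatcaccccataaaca
MT-TP lies at MT:15956-16023 on the minus strand, as the last gene before the noncoding control region, and MT-TF at MT:577-647 on the plus strand as the first gene after it. The 14 tRNA genes with a neighbour within 5 bases on both sides all had 0 counts, and the 3 with a count were among the 8 without. MT-TP passed the filter with 521 to 713 counts per library and had 18.3, 15.8 and 21.1 CPM in dTAG47 libraries, 19.2, 18.6 and 17.1 CPM in AGB1 libraries and 17.8, 19.7 and 19.1 CPM in DMSO libraries. The groups overlapped, and the log2 fold change was -0.04 (SE 0.12) with each compound, not past the threshold. Whether its reads come from the tRNA strand or from plus-strand transcripts through the position cannot be told apart.

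Nuclear copies of mitochondrial genes can take or give reads. By symbol the files list 407 such copies, of which 77 had a count. Of these 77, 4 of the MTRNR2L family are classed as protein-coding and the others as pseudogenes, and 3 pseudogenes on chromosome 1 held 99.0% of the counts of all copies. MTATP6P1 alone (1:633696-634376) held 77.4%, with 19.2, 19.6 and 20.3 counts per 100 counts of MT-ATP6 in dTAG47 libraries, 20.7, 20.4 and 20.2 in AGB1 libraries and 19.01, 19.0 and 19.6 in DMSO libraries. The share of 75-base words of a mitochondrial gene that also occur in a nuclear transcript was 36.6% for MT-CO1, 34.4% for MT-ND2 and 28.01% for MT-ATP6. It was 0 for MT-RNR1, MT-ATP8, MT-ND3, MT-ND4L, MT-ND4 and MT-CYB, and 3.16% for MT-RNR2. These words cover annotated transcripts, and nuclear copies outside them were not searched. With the counts of the copies added to each gene, the log2 fold change of MT-RNR1 with dTAG47 was -0.36 (edgeR adjusted p = 0.0306).

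None of the listed nuclear genes that express the mitochondrial genome passed the edgeR test in either comparison. In 6 lists, chosen with earlier results of these data known, 78 of 79 genes found were tested and 0 were called by edgeR or limma-voom, where edgeR called 11 of all 18319 genes with dTAG47 and 19 with AGB1. In edgeR 8 of the 78 were under an unadjusted p of 0.05 with dTAG47, where 7.28% of all genes were, and 9 with AGB1, where 7.76% were. DESeq2 called 0 of the lists with dTAG47, among 47 genes called in all, and 1 with AGB1, SLC25A36, among 67. Their median log2 fold change was -0.02 with dTAG47 and 0.01 with AGB1. Of the 8 genes for transcription of mitochondrial DNA, 0 had a positive log2 fold change with dTAG47 and 1 with AGB1, with medians of -0.11 and -0.07 beside 0.00 over all genes. TFAM, which packages the DNA and activates its promoters, averaged 213 ± 7.61 CPM with dTAG47, 224 ± 10.4 CPM with AGB1 and 233 ± 10.2 CPM with DMSO (SD, n = 3 each). Its log2 fold changes were -0.13 (SE 0.06, edgeR adjusted p = 0.627) with dTAG47 and -0.06 (SE 0.06, edgeR adjusted p = 0.860) with AGB1. The mitochondrial RNA polymerase POLRMT and the topoisomerase TOP1MT were between -0.05 and -0.02 with both compounds.

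For the processing of precursors, ELAC2, which cuts the 3′ ends of tRNAs, had 0.00 with dTAG47 and 0.00 with AGB1 on the log2 scale. The RNase P subunits TRMT10C and HSD17B10 had -0.13 and -0.09 with dTAG47, and -0.07 and -0.10 with AGB1. LRPPRC, which stabilises mitochondrial mRNAs, averaged 347 ± 23.6 CPM with dTAG47, 354 ± 12.5 CPM with AGB1 and 387 ± 13.7 CPM with DMSO (SD, n = 3 each). Its log2 fold changes were -0.16 with dTAG47 (SE 0.05, edgeR adjusted p = 0.443) and -0.13 with AGB1 (SE 0.05, edgeR adjusted p = 0.527). GRSF1, of mitochondrial RNA granules, had -0.04 with dTAG47 and 0.01 with AGB1, and PNPT1, the RNA-degrading polynucleotide phosphorylase, -0.06 with dTAG47 and -0.14 with AGB1.

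For the ribosome, ERAL1, the chaperone that binds the 12S rRNA, was at -0.01 (SE 0.06) with dTAG47 and 0.05 (SE 0.06) with AGB1 on the log2 scale. The RNA helicase DHX30 had -0.05 with dTAG47 and -0.08 with AGB1, and RPUSD3, a pseudouridine synthase of the 16S rRNA, 0.12 with dTAG47 and 0.08 with AGB1. The median over the 21 genes of rRNA modification and ribosome assembly was 0.02 with dTAG47 and 0.07 with AGB1, with 11 positive with dTAG47 and 15 with AGB1. For DNA maintenance, the single-strand binding protein SSBP1 had -0.03 with dTAG47 and 0.05 with AGB1. The polymerase POLG had 0.13 with dTAG47 and 0.11 with AGB1, and the nucleoid-associated ATAD3B 0.03 with dTAG47 and 0.16 with AGB1. Among 15 tested genes of mitochondrial nucleotide supply, SLC25A36, a pyrimidine nucleotide carrier, had the smallest adjusted p of the 6 lists with each compound. It averaged 129 ± 9.89 CPM with dTAG47, 122.9 ± 9.48 CPM with AGB1 and 152 ± 13.6 CPM with DMSO (SD, n = 3 each). Its log2 fold changes were -0.23 with dTAG47 (SE 0.07, edgeR adjusted p = 0.352) and -0.31 with AGB1 (SE 0.07, edgeR adjusted p = 0.110), neither past the threshold in edgeR. The nucleoside diphosphate kinase NME4 had -0.03 with dTAG47 and -0.02 with AGB1.

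Set directly against each other, dTAG47 and AGB1 differed past the adjusted threshold in 0 of 18319 genes by edgeR, and in 0 by DESeq2 and by limma-voom. In edgeR 4.02% of genes were under an unadjusted p of 0.05. Of the 16 mitochondrial genes 1 was under it, MT-RNR2, given above. The log2 difference, dTAG47 minus AGB1, was positive for 12 and negative for 4 of these 16 genes, which do not vary independently. Its median was 0.03. It ranged from -0.12 for MT-RNR1 to 0.13 for MT-RNR2, with a median SE of 0.06.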

How the data were processed

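The authors deposited 1 table of raw counts, whole numbers per Ensembl gene, for each of the 9 libraries. Poly-T bead selection and random-hexamer cDNA synthesis are given in the labels' protocols. HISAT2, DESeq2 and hg38 are named in the submitters' processing notes; not given in the sources used here are versions, the counting tool, its strand setting and its treatment of reads with several matches. Gene models match GENCODE 29 in 58735 of 58735 genes. Members and lists were chosen with earlier results of these data known.

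The counts were filtered with filterByExpr (edgeR 4.0.16, R 4.3.3), which kept 18319 genes, 16 of them mitochondrial, and scaled by TMM. One quasi-likelihood model covered 9 libraries, with Benjamini-Hochberg adjustment over all genes and a threshold of 0.05. CPM use TMM-scaled library sizes, except those of the cell type markers and the limits for 0 counts, which use total counts. The SE was obtained by dividing the size of the log2 fold change by the root of the F statistic. The common biological coefficient of variation was 11.0%. For shares and ratios, two-sided exact permutation tests were used (scipy 1.17.1). Limits for 0 counts cover counting error only.

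Named are all mRNAs and rRNAs, tRNAs that passed the filter or had most counts, the 3 most abundant genes of each nuclear list, the 3 pseudogenes with most counts, PRPS1 and PRPSAP1; 1 gene of the lists is not reported here, and names beyond these were chosen after their values were seen. Alternatives were DESeq2 1.42.0, limma-voom (limma 3.58.1), other scalings and filters, the 2 groups alone, a block for the replicate number, GC trends taken out (lowess span 0.3, genes at 5 CPM or more), summed overlapping genes, added nuclear copies, other denominators and leaving out each library.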

Additional observations from a re-analysis of the deposited data

Results flagged for a closer look

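The pseudogene MTATP6P1 lies on chromosome 1, outside the mitochondrial genome, and a test of its ratio to its parent gene was not planned. It had more counts per 100 counts of MT-ATP6 in every AGB1 library than in any DMSO library. The mean was 20.4 with AGB1 (20.7, 20.4 and 20.2) and 19.2 with DMSO (19.01, 19.0 and 19.6), with a two-sided exact permutation p of 0.1, the smallest possible. In dTAG47 libraries the values, 19.2, 19.6 and 20.3, overlapped those of DMSO.

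The same held for MTND2P28 (1:629640-630683) per 100 counts of MT-ND2. Its mean was 5.15 with AGB1 (5.12, 5.37 and 4.94) and 4.49 with DMSO (4.46, 4.52 and 4.51), again with a two-sided exact permutation p of 0.1. The dTAG47 libraries had 4.195, 4.79 and 5.06. MTCO1P12, the third pseudogene by counts, averaged 0.185 with AGB1 and 0.189 with DMSO per 100 counts of MT-CO1 (two-sided exact permutation p = 1). Over the 9 comparisons of these 3 pseudogenes the smallest adjusted value was 0.45.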

How the results depend on the processing

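For dTAG47 against DMSO, the count of called mitochondrial genes, 1 at first, was 0 with DESeq2 and with the 2 groups alone, and 0 to 1 when each library was left out. For AGB1 against DMSO, 0 at first, it was 2 (MT-RNR1 and MT-RNR2) without a count filter and with the GC trend removed together with the replicate block, against 0 with the GC trend alone removed, and 0 to 2 with a library left out, the 2 calls coming without DMSO library 3. For dTAG47 against AGB1 it was 0 throughout. The causes were not tested. The log2 fold change of MT-RNR1 with dTAG47 kept its sign under every setting run and was -0.456 to -0.279 with a library left out. Same-numbered libraries did not deviate together (correlations -0.156 to 0.0717). The numbers thus gave no sign of pairing, which does not exclude it, since GC trends that differed between libraries also enter these correlations. With the number as a block MT-RNR1 with dTAG47 was at -0.36 (edgeR adjusted p = 0.00112), and the block alone changed no call in any of the 3 comparisons.

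Signs turned for values that were not past the threshold. With dTAG47, removal of the GC trend gave log2 fold changes of 0.0168 for MT-ND6 and 0.0478 for MT-TP, and 0.00908 and 0.0424 together with the replicate block. With AGB1, MT-TP was then at 0.0277 and 0.0269. With a library left out, the log2 fold change with dTAG47 was -0.0812 to 0.0763 for MT-ND1, -0.149 to 0.0104 for MT-CO1, -0.0928 to 0.0333 for MT-CO2, -0.152 to 0.0157 for MT-ATP6, -0.0372 to 0.207 for MT-ND4L, -0.193 to 0.0261 for MT-ND4, -0.0961 to 0.0826 for MT-ND5, -0.0614 to 0.0756 for MT-ND6, -0.151 to 0.0319 for MT-CYB and -0.147 to 0.0638 for MT-TP. With AGB1 it was -0.0561 to 0.075 for MT-ND2, -0.0732 to 0.0305 for MT-CO3 and -0.081 to 0.00135 for MT-TP. The difference in mitochondrial share of all counts was -0.181 to 0.0249 percentage points for dTAG47 minus DMSO and -0.0486 to 0.158 for dTAG47 minus AGB1. For the mRNA share it was -0.157 to 0.0567 and -0.0617 to 0.152 for the same pairs. The log2 difference in the rRNA to mRNA ratio was -0.0783 to 0.134 for dTAG47 minus AGB1, and that in the MT-RNR1 to MT-RNR2 ratio -0.0874 to 0.0108 for AGB1 minus DMSO.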
